A study of Mus musculus with 2 samples.

Results

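Rpgrip1l, Irx3, Irx5 and Irx6, the protein-coding genes next to Fto on mouse chromosome 8, and Irx1, Irx2 and Irx4, the Iroquois genes on chromosome 13, were examined in the beta cell line MIN6, which derives from a mouse insulinoma and releases insulin when glucose rises. The probes were taken from the spot tables by their accession, which was matched to the NCBI mouse annotation. This gave 8 probes for these 7 genes, among 39417 probes and 20653 named genes on the arrays. Cells at passages 15 to 20 had been transduced with a lentivirus carrying either the pLVX-IRES-ZsGreen vector with the coding sequence of mouse Fto (the FTO array) or the same vector without it (the control array). Both viruses were added with 8 µg/ml polybrene, and the transduction of both lasted 48 h before ZsGreen fluorescence was viewed. The RNA of each was hybridized to 1 single-color Agilent mouse array, and both arrays lay on the same slide. With 1 array per condition there is no replicate check and no p-value, and every direction rests on the labels of the arrays.

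The Iroquois genes encode transcription factors with a homeodomain of the TALE class, which carries a loop of additional residues between its helices. In mammals they stand in a pair of clusters, Irx1, Irx2 and Irx4 in the first and Irx3, Irx5 and Irx6 in the second, and they pattern the heart, the nervous system, the limbs and other organs. The second cluster follows Fto on the chromosome, and introns of Fto hold regulatory elements that reach the promoters of Irx3 and Irx5, so obesity-associated variation in FTO has been discussed through these genes and through RPGRIP1L as well as through FTO itself. Rpgrip1l encodes a protein of the transition zone, the gate at the base of the primary cilium, and its loss disturbs Hedgehog signaling. In the islet, Irx1 and Irx2 are known from glucagon-producing alpha cells and their precursors.

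Fto and Rpgrip1l are arranged head to head, and in the RefSeq table of promoters, which gives 250 bases before and 50 after a gene start, the windows of these genes overlap by 198 bases (GRCm38.p6, chr8:91313275-91313472, plus strand, which is the strand of Fto). Of the 27025 genes in that table, 3.77% have a window that overlaps that of another gene in this divergent way. The shared stretch is shown because both genes were measured on the arrays, with CG dinucleotides in capitals. It holds 15 of them and is 57.6% G or C.
Fto and Rpgrip1l shared stretch: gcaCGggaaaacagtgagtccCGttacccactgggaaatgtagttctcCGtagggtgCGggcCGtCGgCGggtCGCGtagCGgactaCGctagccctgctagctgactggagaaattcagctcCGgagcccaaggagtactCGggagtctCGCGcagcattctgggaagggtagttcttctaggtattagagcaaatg

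Of the other members, Irx2, Irx3 and Irx4 have a window in the table, and Irx1, Irx5 and Irx6 were not found in it. The windows of Irx2 (chr13:72628570-72628869, plus strand), Irx3 (chr8:91801605-91801904, minus strand) and Irx4 (chr13:73260247-73260546, plus strand) are shown, from RefSeq and GRCm38.p6. They were chosen because, against its own local background, the first Irx2 probe was bright, the Irx3 probe was not well above it and the Irx4 probe was dim. CG dinucleotides are again in capitals.
Irx2 promoter window: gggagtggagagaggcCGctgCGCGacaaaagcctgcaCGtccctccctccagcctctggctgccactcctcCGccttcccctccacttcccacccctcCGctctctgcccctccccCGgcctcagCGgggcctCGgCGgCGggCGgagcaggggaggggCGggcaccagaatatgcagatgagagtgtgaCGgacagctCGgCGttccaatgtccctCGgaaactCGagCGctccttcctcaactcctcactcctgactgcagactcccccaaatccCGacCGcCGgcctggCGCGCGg
Irx3 promoter window: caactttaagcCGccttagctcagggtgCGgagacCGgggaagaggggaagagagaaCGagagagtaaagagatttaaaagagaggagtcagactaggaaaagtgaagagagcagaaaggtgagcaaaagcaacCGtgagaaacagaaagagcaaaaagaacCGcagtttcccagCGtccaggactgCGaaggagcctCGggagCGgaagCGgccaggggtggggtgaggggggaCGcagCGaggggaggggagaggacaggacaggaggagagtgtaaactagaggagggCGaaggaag
Irx4 promoter window: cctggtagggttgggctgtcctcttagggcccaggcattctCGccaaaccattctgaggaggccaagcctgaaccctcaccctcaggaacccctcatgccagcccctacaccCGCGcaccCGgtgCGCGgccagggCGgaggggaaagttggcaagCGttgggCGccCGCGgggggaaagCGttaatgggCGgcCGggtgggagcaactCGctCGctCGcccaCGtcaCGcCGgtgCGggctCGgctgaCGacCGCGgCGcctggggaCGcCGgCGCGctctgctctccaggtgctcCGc

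The Irx2 window holds 25 CG dinucleotides, the Irx3 window 14 and the Irx4 window 31. The median of all 32851 windows of this length is 7. A count as high as that of Irx4 is found in 10.6% of these windows, as high as that of Irx2 in 18.4% and as high as that of Irx3 in 36.3%.

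The intensities given below are those of the Feature Extraction software, after the local background and the trend across the array had been removed, and they depend on the probe as well as on the amount of RNA. No level of one gene is therefore set against that of another, and detection is described for each spot against its own surroundings. Of the 39417 probes, 82.0% on the FTO array and 84.9% on the control array were well above background by the flag of the software. The median intensity was 292 on the FTO array and 237 on the control array, a difference that normalization between the arrays removes. Differences are given on the log2 scale after quantile normalization, as FTO minus control, with the error of both spots from the error model of the software. This spot error covers the measurement of the spots and not the variation between cultures.

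Fto was first examined as the overexpressed gene. Its single probe (NM_011936) had an intensity of 7301 on the FTO array and 5179 on the control array, and after normalization it was 0.06 higher on the log2 scale (spot error 0.20), less than the error of the spots. Before normalization it was 0.50 higher, beside 0.34 for the median of all tested probes. The vector carries the coding sequence alone, and the position of this probe in the transcript is not given in the sources used here, so it is not known whether the probe can detect RNA of the vector.

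Of the 7 genes, 6 had a spot well above background on both arrays. This held for 7 of the 8 probes, which is near the 82.0% and 84.9% of all probes on the FTO and control arrays, and the single probe of Irx3 was so on neither. The flag also passed dim probes of genes of other cell types, such as Cela1 of acinar cells, at 39.9 on the FTO array and 41.4 on the control array, and Col3a1 of fibroblasts, at 35.7 and 42.4. For the dim spots it therefore says no more than that they exceed their background. Rpgrip1l, Irx1 and the first probe of Irx2 stood far above their surroundings, with raw spots at least 39.1 times as bright as the local background. The probes of Irx4, Irx5, Irx6 and the second probe of Irx2 were between 2.44 and 3.27 times as bright as theirs.

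**Figure D1:**
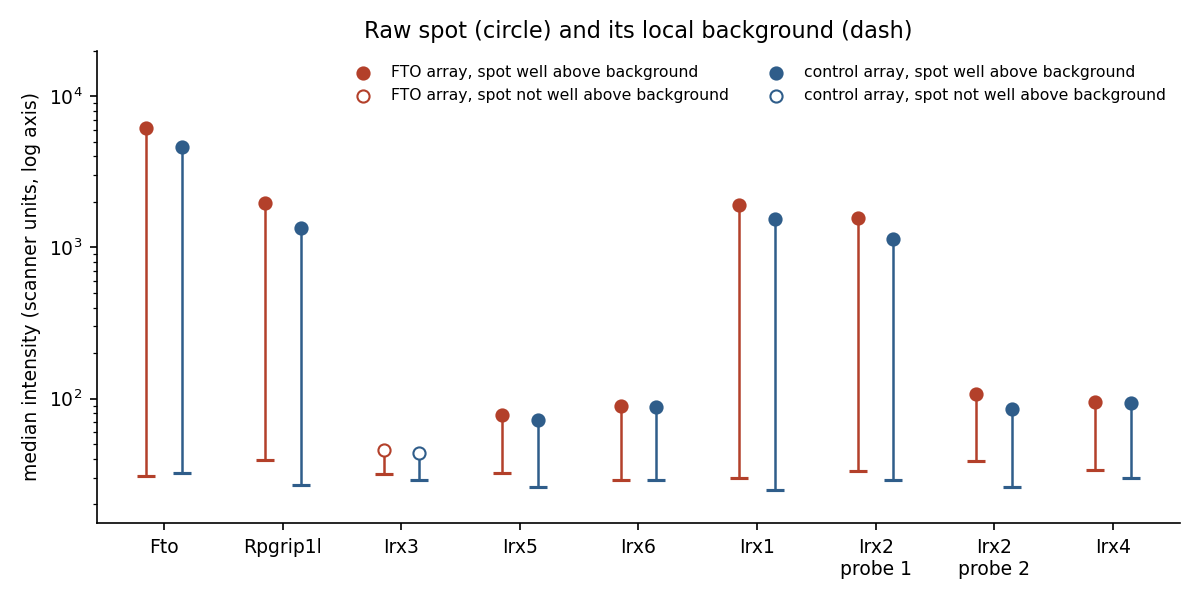
Median raw intensity of each spot (circle) and of its local background (dash), in scanner units on a log axis, on the FTO array and the control array, for Fto and the 8 probes of the neighbouring and Iroquois genes; open circles are spots not well above background. The Irx3 spots, at 46.0 and 44.0, lie close to their local backgrounds of 31.5 and 29.0, while the spots of Rpgrip1l, Irx1 and the first Irx2 probe are at least 39.1 times as bright as their own.

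None of the 6 detected genes differed by more than 2-fold, the threshold used in the study, and Irx3 could not be tested. Over all named genes that could be tested (well above background on 1 array or both), 595 of 18512 (3.21%) had a probe past this threshold. Of the 7 measured member probes, 4 were higher and 3 lower on the FTO array. The differences of Irx4, Irx6 and the second Irx2 probe exceeded their spot error, which is 3 of 7, while 30.0% of all 31939 probes well above background on both arrays did so. With so few probes this share cannot be set apart from that of the array. All 7 probes lay between the 5th and the 95th percentile of probes with a mean signal within 0.5 of their own on the log2 scale.

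**Figure D2:**
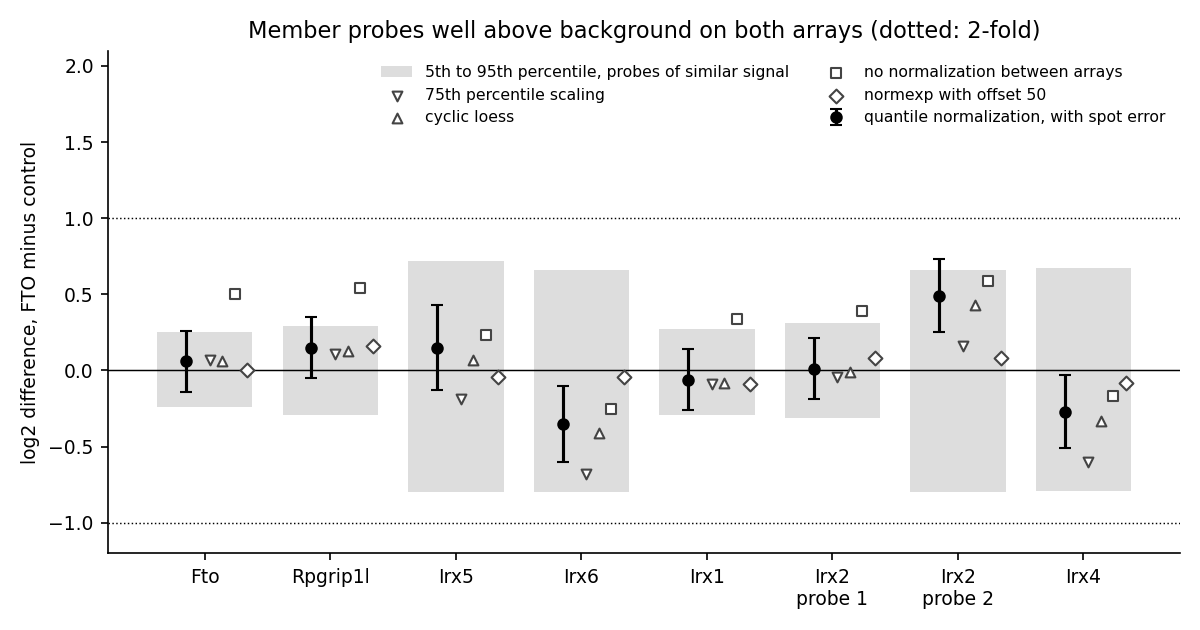
Log2 difference, FTO minus control, of Fto and of the 7 member probes well above background on both arrays (black, with spot error), with other ways of processing as open symbols and the 5th to 95th percentile of probes of similar signal in grey; dotted lines mark 2-fold. Values after quantile normalization run from -0.35 for Irx6 to 0.49 for the second Irx2 probe, and all lie within 2-fold.

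Rpgrip1l, the ciliary gene whose promoter window overlaps that of Fto, was clearly expressed. Its probe (NM_173431) had an intensity of 1794 ± 179 (spot error) on the FTO array and 1235 ± 124 on the control array. Before normalization the log2 difference was 0.54, while the median of all tested probes was higher on the FTO array by 0.34. After normalization it was 0.15 (spot error 0.20), or 1.11-fold, less than this error. It is more than the SD between repeated spots of such a signal, 0.06 on each array, which leaves out what differs between cultures and hybridizations. Among 2309 probes of similar signal the middle 50% of differences ran from -0.11 to 0.12, so Rpgrip1l lay just above this range. It was above 0 in all 7 other ways of processing, between 0.11 and 0.54. The highest was without normalization, which keeps the difference of 0.34 in the median of all tested probes. The log2 values deposited by the authors and intensities raised to at least 5 repeat the quantile normalization, and both gave 0.15.

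Irx3, the first Iroquois gene after Fto, encodes a factor studied in the hypothalamus and in adipocytes for its part in energy expenditure. Its probe (NM_001253822) was not above background on either array. The raw spot had a median of 46.0 on the FTO array against a local background of 31.5, and 44.0 on the control array against 29.0. After the background had been removed the intensities were 3.69 and 2.70, each with an error as large as the value (3.68 and 2.69). The lowest intensity of any probe well above background was 13.6 on the FTO array and 10.7 on the control array. Irx3 was thus not detectable with this probe, and no fold change is given. This probe is also the only member probe that is missing from the table of log2 values deposited by the authors, which lists 33870 probes.

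Irx5 lies next to Irx3 and acts with it in the heart and the limb. Its probe (NM_018826) had an intensity of 36.3 ± 5.13 on the FTO array and 30.9 ± 4.09 on the control array. Both spots were well above background but dim, and their ranges of error overlap. FTO minus control was 0.15 on the log2 scale (spot error 0.28). Its sign depended on the processing, from -0.19 with scaling by the 75th percentile to 0.23 without normalization, so no direction can be given for Irx5.

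Irx6, which is best known from interneurons of the retina, is the last gene of this cluster. Its probe (NM_022428) had an intensity of 36.4 ± 4.70 on the FTO array and 43.3 ± 4.87 on the control array. FTO minus control was -0.35 on the log2 scale (spot error 0.25), and -0.25 before normalization. The raw spots were nearly equal, at 89.0 and 88.0, over local backgrounds of 29.0 on both arrays. The difference was below 0 in all 6 other ways of processing that gave a value. Of these, the deposited values and intensities raised to at least 5 repeat the main result. The difference was -0.41 with cyclic loess and -0.68 with scaling by the 75th percentile. It was -0.04 with normexp, which starts from the raw spots and adds an offset of 50 that itself draws dim spots together. The spot lies at row 326 and column 1, at the edge of the array and in an area where repeated probes lost signal on the FTO array.

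Irx1 gave a strong spot. Its probe (NM_010573) had an intensity of 2148 ± 215 on the FTO array and 1699 ± 170 on the control array, with raw spots 63.6 and 62.1 times as bright as the local background. FTO minus control was -0.06 on the log2 scale (spot error 0.20). Irx1 therefore showed no difference beyond the error of the spots. Before normalization it was 0.34, the same as the median of all tested probes.

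Irx2, the neighbour of Irx1, has a pair of probes for the same accession (NM_010574), and they gave different pictures. The first (A_55_P2125557) had an intensity of 1361 ± 136 on the FTO array and 1040 ± 104 on the control array and differed by 0.01 on the log2 scale (spot error 0.20). The second (A_52_P635312) had an intensity of 49.9 ± 5.74 and 33.2 ± 3.95 and differed by 0.49 on the log2 scale (spot error 0.24). The first probe was strong and equal on both arrays, and the second was dim and 1.40-fold brighter on the FTO array. The second probe lies at row 255 and column 23, in the area of lost signal, and its local background was 38.5 on the FTO array against 26.0 on the control array. Its difference was above 0 in all 6 other ways of processing that gave a value. Of these, the deposited values and intensities raised to at least 5 repeat the main result. The difference was 0.16 with scaling by the 75th percentile, with normexp 0.08, and 0.43 with cyclic loess and 0.59 without normalization. The normexp setting adds an offset of 50 to each spot, which brings differences of dim spots closer to 0, so its value is not set against the spot error. A difference of Irx2 thus rests on the dim probe alone.

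Irx4, a gene of the heart ventricle, was dim. Its probe (NM_018885) had an intensity of 36.8 ± 4.64 on the FTO array and 41.5 ± 4.69 on the control array. FTO minus control was -0.27 on the log2 scale (spot error 0.24). As for Irx6, the raw spots were alike, at 95.0 and 93.0, over local backgrounds of 33.5 and 30.0. The difference was below 0 in all 7 other ways of processing. It lay between -0.60 with scaling by the 75th percentile and -0.08 with normexp and its offset of 50. Of these ways, the deposited values and intensities raised to at least 5 repeat the main result.

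The precision of dim and strong spots could be read from 399 probes that are printed 10 times. For repeated probes with a mean log2 signal between 5 and 6, where Irx4 and Irx6 lie, the median SD between spots of a probe was 0.20 on the FTO array and 0.17 on the control array. For a signal between 10 and 11, where Rpgrip1l, Irx1 and the first Irx2 probe lie, it was 0.06 on both. Among probes of similar signal, 4.66% differed by more than 2-fold at the signal of Irx6 and 0.420% at that of Irx1. The 3 differences above their spot error all belong to dim spots.

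The array surface was divided into 35 blocks, and repeated probes with a median log2 signal of 4.5 to 8 were used to look for lost signal. In 6 adjoining blocks of the FTO array, 24.0% of their spots fell short of the probe's median by over 0.5, against 1.37% in the other blocks, and on the control array none was so in the same 6 blocks. The control array had 1 such block of its own (rows 1 to 76, columns 35 to 51), where 18.2% of such spots were low, and it holds no member spot. These blocks hold 17.5% of all tested probes and 2 of the 8 member probes, that of Irx6 and the second of Irx2. Irx6 was lower and Irx2 higher there, and the part of the array surface in these values was not tested. Irx4 lies outside the area, and with these blocks left out its difference was -0.30.

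**Figure D3:**
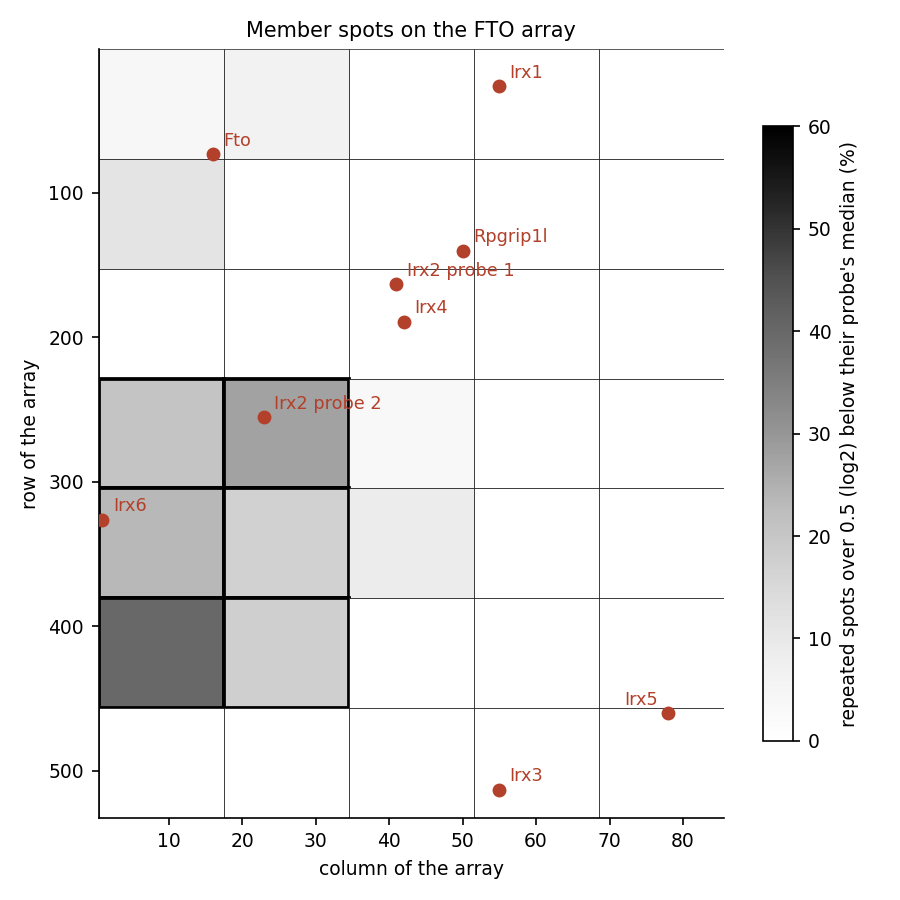
Position of the spots of Fto and of the 8 member probes on the FTO array, by row and column, over the share of repeated spots in each of 35 blocks that fell short of the probe's median by over 0.5 (log2); thick outlines mark blocks with at least 15%. The spots of Irx6 and of the second Irx2 probe lie inside the outlined blocks, and the other members lie outside.

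The wider surroundings of Fto were examined with a list of 12 genes, from Chd9 to Slc6a2 in the order of the chromosome. The list includes Aktip, which with Rpgrip1l, Fto and the second Iroquois cluster is removed by the fused toes deletion of the mouse. Of these genes, 9 were tested and none passed 2-fold in either direction, beside 3.21% of all named genes. The median difference was 0.06, against 0.01 over all genes tested. The highest value belonged to Chd9, a chromatin remodeler, with 8547 on the FTO array and 5154 on the control array. It was higher on the FTO array by 0.30 on the log2 scale (spot error 0.20). Irx6 was the lowest. Mmp2, which encodes a matrix metalloproteinase, and Lpcat2, a lysophospholipid acyltransferase, were well above background on the control array only. Mmp2 had an intensity of 12.9 on the FTO array and 13.6 on the control array, and Lpcat2 had 14.4 and 16.5. Their log2 differences, -0.07 (spot error 0.44) and -0.20 (spot error 0.47), were within the error of the spots. They are not exact, because the spots on the FTO array were not well above background. Capns2, a calpain subunit, and Slc6a2, the noradrenaline transporter, were not well above background on either array, and neither was Irx3. By a weaker flag of the software, for a positive and significant signal, Capns2 and Slc6a2 passed on both arrays and Irx3 on neither. With scaling by the 75th percentile the median of the list was -0.16, while that of all tested probes moved to -0.08.

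**Figure D4:**
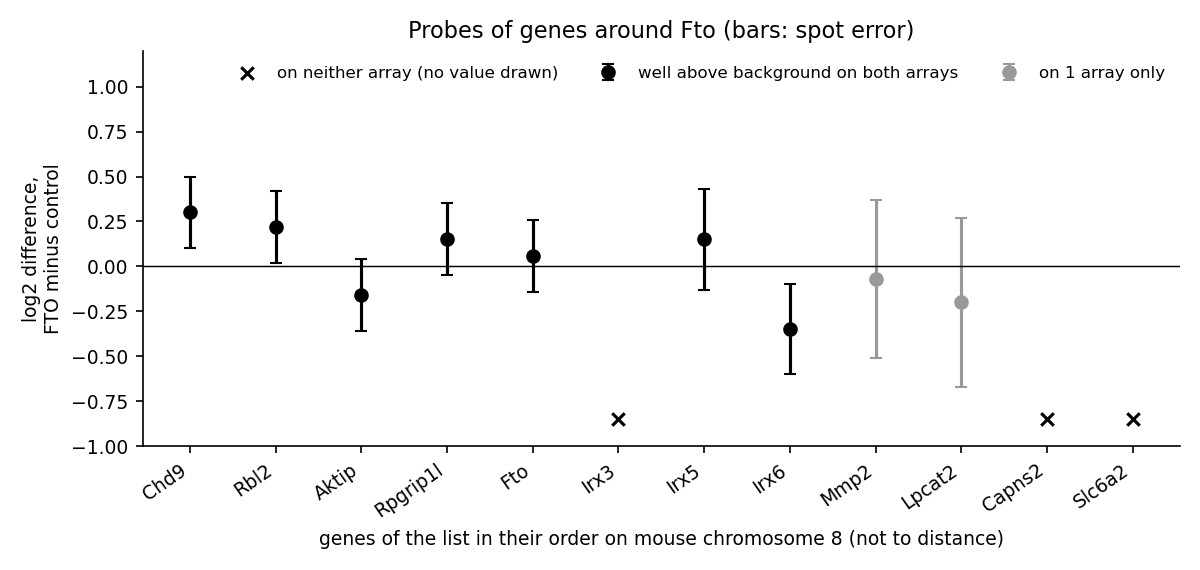
Log2 difference, FTO minus control, with spot error, for the probes of 12 genes around Fto in their order on chromosome 8 (not drawn to distance); black, well above background on both arrays; grey, on 1 array only; crosses, on neither. The 4 genes before Fto and Fto itself are all detected, with values from -0.16 for Aktip to 0.30 for Chd9, while Irx3 and the last 2 genes are not.

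The TALE homeobox genes, to which the Iroquois genes belong, were described in the same way. Of 18 genes, 17 were well above background on both arrays, and the exception was Irx3. Over all named genes, 18512 of 20653 had a probe well above background on 1 array or both. None passed 2-fold, beside 3.21% of all named genes, and the median difference was -0.06. Of the 17 genes, 6 were above 0 and 11 below, where 51.6% of all genes tested were above 0. Irx6, at -0.35, and the second Irx2 probe, at 0.49, were the extremes of the 25 probes above background on both arrays. A probe of Pbx4 and one of Pknox1, cofactors of Hox proteins, were at the same -0.35 as Irx6. Mkx, the Iroquois-related gene Mohawk of tendon, had an intensity of 3072 on the FTO array and 1995 on the control array and differed by 0.23 (FTO minus control) on the log2 scale (spot error 0.20).

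Genes that work with Rpgrip1l were examined in 2 lists. All 24 genes of the ciliary transition zone were well above background on both arrays, none passed 2-fold (3.21% of all named genes did), and their median was 0.04, with 16 above 0 and 8 below (51.6% of all genes tested were above 0). The lowest was B9d2, a protein of the gate complex, with -0.25 (spot error 0.20), whose spot lies in the area of lost signal. Of the Hedgehog pathway all 16 genes were tested, none passed 2-fold, and the median was 0.02, with 8 above 0 and 8 below, to be read beside the same 3.21% and 51.6%. Ptch1, the Hedgehog receptor and a target of the pathway, had the highest difference, 0.51 (spot error 0.21), from intensities of 103 and 64.1. Smo, which passes the signal on, had the lowest, -0.74 (spot error 0.21), from 216 and 295. A second, dim Smo probe, at 33.4 and 30.0, had a difference of 0.08, so the pair of Smo probes disagreed. Gli1, a further target, was dim, at 17.4 and 14.7, with a difference of 0.24 and a spot error of 0.41. With scaling by the 75th percentile the Hedgehog median was -0.18, beside -0.08 for all tested probes.

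**Figure D5:**
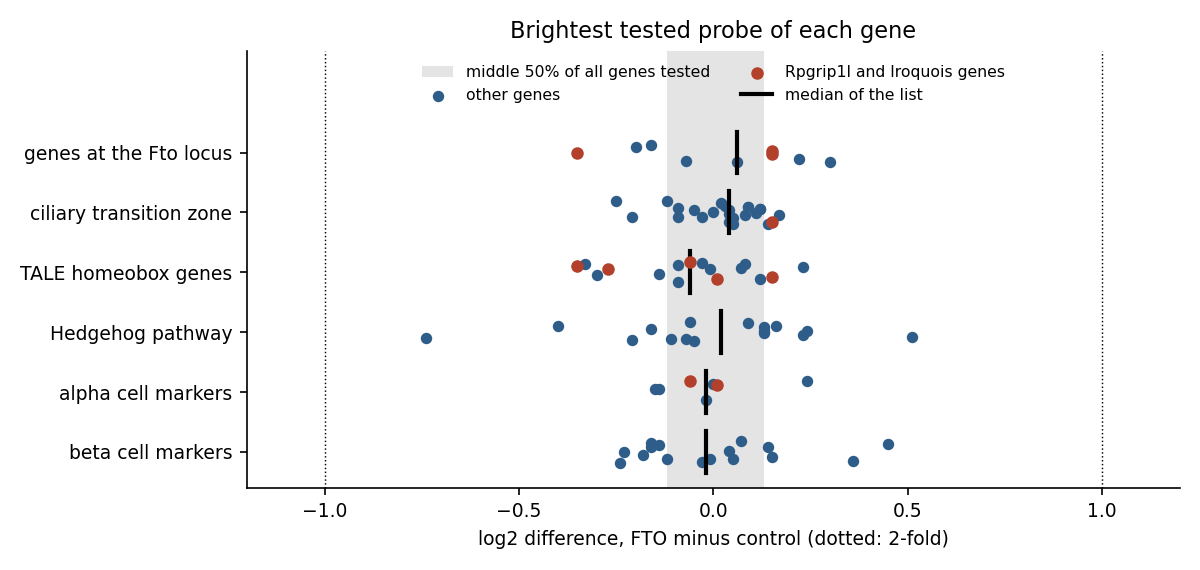
Log2 difference, FTO minus control, of the brightest tested probe of each gene in 6 lists; red points are Rpgrip1l and the Iroquois genes, blue points the other genes, black lines the medians, the grey band the middle 50% of all genes tested (-0.12 to 0.13), and dotted lines 2-fold. All points lie inside 2-fold, and the lowest and the highest are Smo and Ptch1.

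Markers of the cells were read on the same arrays. All 16 beta cell markers were well above background on both arrays, with Ins2 at 276722 on the FTO array and 320363 on the control array. The list of alpha cell markers, which includes Irx1 and Irx2, was also well above background for all 7 genes. Gcg, the glucagon gene, had an intensity of 256729 and 243795 and a log2 difference of 0.00, and Ttr, the transthyretin gene, had 235859 and 245870. Pou3f4, a POU domain factor, was dim, at 30.6 and 31.9. Irx1 and Irx2 were thus detected in a line in which Gcg is bright on both arrays. Of the other lists, Hhex (delta cells), Ptf1a (acinar cells), Sox9 (duct cells) and Pdgfra (fibroblasts) were not well above background on either array. Ptf1a and Sox9 passed the weaker flag on both. The other measured genes of these lists were well above background on both arrays (3 delta and PP, 4 acinar, 3 duct and 4 fibroblast genes). So were 2 of 3 endothelial genes and all 3 measured immune genes. Among them were Ppy, at 14003 on the FTO array and 10872 on the control array, and Spp1 of the duct list, at 61191 and 56860. Cel of the acinar list was at 560 and 493, and Col1a1 of the fibroblast list at 515 and 362. The other acinar genes were dim, with Cpa1 at 69.9 and 51.7, Cela1 at 39.9 and 41.4 and Pnlip at 25.1 and 20.2. In the fibroblast list Col1a2 was at 293 and 246, while Dcn, at 45.6 and 41.2, and Col3a1, at 35.7 and 42.4, were dim. No marker of any list passed 2-fold. Before normalization between the arrays, the summed signal of the 16 beta cell markers was 1959282 on the FTO array and 1907145 on the control array, and that of the 7 alpha cell markers was 496185 and 492488. Nearly all of the alpha cell sum comes from Gcg and Ttr, and the FTO array was brighter at its median, so these sums give no change of a cell type. The highest beta cell difference was that of Slc2a2, the glucose transporter, at 0.45 (spot error 0.20), and the lowest that of Ins2, at -0.24 (spot error 0.20). The medians of both lists were -0.02. The smaller lists had medians of -0.08 (delta and PP cells, 3 genes tested), 0.05 (acinar, 4), -0.28 (duct, 3), 0.00 (fibroblast, 4), -0.11 (endothelial, 3) and 0.30 (immune, 3). The part of other cell types in the member values was not tested. In such bulk RNA, fewer cells of a type and less RNA per cell cannot be told apart.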

How the data were processed

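Total RNA of MIN6 cells was measured on 2 single-color Agilent arrays, 1 for the FTO vector and 1 for the empty vector, grouped by the labels. The authors deposited the intensity of each spot, written by Feature Extraction 11.0.1.1 with the background and spatial trend removed and no normalization between arrays, with error estimates and flags, and a table of log2 values that were quantile normalized in GeneSpring. The deposited log2 values differed from quantile normalized spot intensities raised to at least 5 by a mean of 0.000807, so their scale and direction follow from the spot tables.

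Left out were control spots and those flagged as outliers on either array (148 on the FTO array and 141 on the control array). No spot was saturated. Intensities were taken to log2, spots of a probe were averaged, and quantile normalization followed the methods (limma 3.58.1, R 4.3.3). Tested probes were flagged well above background on 1 array or both, and those past 2-fold were called. Accessions without version were named from the NCBI annotation of GRCm38.p6 (27224 probes named). The array design lists another assembly, so coordinates are given only for RefSeq promoter sequences. Lists were described by counts and by the brightest probe of each gene. Python 3.11.15, pandas 2.3.3, numpy 2.4.6 and matplotlib 3.10.9 were used, and the scripts were tested on simulated data.

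Members and lists were chosen with earlier results of these data known. The genes named are the members, Fto, and, of the lists, any gene past 2-fold, the extremes and those not well above background. Further genes (Mkx, Gli1 and markers) were picked after their values were seen. Values of some list genes are not reported here. With 2 arrays no likeness of patterns between genes was computed. The number of arrays limits the precision. Other normalizations, background corrections and filters were tried. The alternative with normexp used the median spot intensity.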

Additional observations from a re-analysis of the deposited data

How the results depend on the processing

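No detected member gene passed 2-fold under any of the 10 alternatives run for this count. Among these, the deposited values and intensities raised to at least 5 repeat the main result. The count of all named genes past 2-fold was 595. It was 62 with normexp, 317 with blocks of lost signal left out and 257 where both arrays had to be well above background. With no filter it was 1112, and with a floor for dim spots at the lowest detected intensity it was 392. With scaling by the 75th percentile the median of all tested probes is -0.08. The log2 difference was then -0.19 for Irx5, -0.68 for Irx6, 0.16 for the second Irx2 probe and -0.60 for Irx4. After quantile normalization these dim probes were at 0.15, -0.35, 0.49 and -0.27. All were thus lower with the scaling, and by similar amounts. The list median with this scaling was -0.16 for the genes at the Fto locus and -0.18 for the Hedgehog pathway. With normexp, whose offset of 50 by construction shrinks the differences of dim spots, the log2 difference was -0.04 for Irx6 and 0.08 for the second Irx2 probe. Without normalization the median of all tested probes is 0.34. The difference was then 0.50 for Fto, 0.54 for Rpgrip1l, 0.34 for Irx1 and 0.39 for the first Irx2 probe. The list medians were 0.26 for the Fto locus, 0.43 for the transition zone, 0.34 for the TALE homeobox genes and 0.25 for the Hedgehog pathway. The value of Irx1 is thus that of the median of all probes in this setting. The spots of Irx6 and of the second Irx2 probe lie in the blocks left out and have no value there. The other values of members moved by less than their spot error, and other list medians by less than 0.1. The cause of these shifts was not tested. No fold change is given for Irx3, whose spots were not well above background. In the setting with no filter Irx3, Capns2 and Slc6a2 all enter the list of the Fto locus, and its median was 0.11. No paired analysis was possible because each condition has 1 array. Leaving out an array was not possible for the same reason. Dim signals, within about 3 times the local background, limit what can be said of Irx4, Irx5 and Irx6.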
